A study of Mus musculus with 4 samples.

Results

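The 10 genes described here encode transcription factors of the melanocyte lineage. They were taken by name from a list, by a rule that uses no measured value, though earlier results of these data were known when they were chosen. They are Mitf, its relatives Tfe3 and Tfeb, the neural crest factors Sox10, Pax3 and Foxd3, the AP-2 factors Tfap2a and Tfap2b, and Irf4 and Lef1. All 10 were among the 22524 genes counted per library and among the 14265 genes that passed the filter on low counts and were tested. The RNA came from mouse skin, from pre-tumorigenic dermal hyperplasia. Of 4 libraries, 2 were labelled Ezh2Y646N and 2 were labelled NrasQ61K. The Ezh2Y646N mice carried NrasQ61K under the tyrosinase (Tyr) promoter and, in the ColA1 locus, a conditional Ezh2Y646N allele behind a stop cassette (LSL). The NrasQ61K mice carried the same Nras transgene without that allele, so oncogenic Nras was present in both groups. Both groups also carried CreERT2 under the Tyr promoter and a conditional tdTomato reporter in R26R. Tamoxifen switched on the red reporter, and the cells that fluoresced were collected by sorting. Recombination was therefore tied to cells with an active Tyr promoter. Ages, sexes and the number of animals behind each library are not stated in the labels, so p-values measure only the spread between these libraries, which may be technical.

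Mitf is the central regulator of the melanocyte. It is a basic helix-loop-helix leucine zipper protein that binds E-box letters in pigment genes such as Tyr, Dct and Pmel. In the neural crest, Sox10 and Pax3 switch on Mitf, and signals that act through cAMP or through Wnt, beta-catenin and Lef1 act on the same promoter. Ezh2 is the enzyme of Polycomb repressive complex 2 that methylates lysine 27 of histone H3, a mark of silent developmental genes, and the mutant form studied here alters that activity.

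The promoters at the centre of this circuit are shown for the letters that these factors are known to bind. RefSeq promoter windows on GRCm38.p6, running from 250 bases before to 50 bases after each annotated start, were found for 8 of the 10 genes. Mitf has 3 annotated starts in that table, and the most downstream is shown because the melanocyte form of the gene starts there. It spans chr6:97991533-97991832 on the plus strand. Tyr is shown because its promoter drives both the Nras transgene and CreERT2 in these mice. Its window spans chr7:87493463-87493762 on the minus strand. Both are written 5′ to 3′ in lower case, with capitals for the 6-letter motifs found on either strand, which are named after the sequences.
Mitf: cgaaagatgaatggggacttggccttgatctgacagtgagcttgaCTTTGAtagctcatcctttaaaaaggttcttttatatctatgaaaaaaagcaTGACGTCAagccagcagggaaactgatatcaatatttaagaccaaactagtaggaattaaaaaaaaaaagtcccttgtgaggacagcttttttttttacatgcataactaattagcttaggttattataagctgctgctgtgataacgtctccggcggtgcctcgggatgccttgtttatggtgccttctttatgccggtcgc
Tyr: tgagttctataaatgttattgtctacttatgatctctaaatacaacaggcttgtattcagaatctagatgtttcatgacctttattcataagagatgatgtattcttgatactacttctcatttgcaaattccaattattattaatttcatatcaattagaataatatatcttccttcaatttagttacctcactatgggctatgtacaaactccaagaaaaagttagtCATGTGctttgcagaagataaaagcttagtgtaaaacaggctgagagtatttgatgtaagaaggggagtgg

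The Mitf window held CTTTGA, the letters bound by Lef1 and its relatives, beginning at position -205 from the start, and 16% of all 32851 windows hold these letters on either strand. It also held the core letters of the cAMP response element (TGACGT) once on each strand, overlapping as 1 palindrome and beginning at positions -153 and -151. That core is found in 7.51% of all windows. The Tyr window held the E-box letters that Mitf binds in pigment genes (CATGTG), beginning at position -21, as 14.2% of all windows do. The palindromic E-box, which Mitf and Tfeb also bind and which is spelled CACGTG, was in neither window and is held by 7.15% of all windows. The letters of Sox factors were searched as CTTTGT, were in neither window and are held by 18.7% of all windows. A match describes letters in a window and is not evidence of binding. Counts per gene do not tell which Mitf start was used.

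Total counts ranged from 14808801 to 20600297 per library. Levels are given as CPM, the counts of a gene scaled to a common library size after TMM normalization (cpm in edgeR). A positive log2 fold change means a higher level in Ezh2Y646N than in NrasQ61K. The sorted cells carried RNA of melanocytes and of other skin cells. All 10 melanocyte markers fixed for this check, among them Dct, Tyrp1 and Pmel, were detected in every library. Their summed level was 3682 and 3743 CPM in the Ezh2Y646N libraries and 2446 and 3153 CPM in the NrasQ61K libraries, so the groups did not overlap, and 0 of the 10 passed in edgeR, DESeq2 or limma voom, nor had any an unadjusted p under 0.05 in edgeR. They took 0.261% to 0.359% of counts, against 1.11% to 2.46% for 8 basal keratinocyte markers, led by Krt5 and Krt14. Suprabasal keratinocyte markers, led by Krt10 and Krt1, took 3.99% and 2.83% of counts in the Ezh2Y646N libraries and 0.361% and 0.887% in the NrasQ61K libraries. All 7 tested suprabasal markers were above 0, with a median log2 fold change of 2.33. At an adjusted p under 0.05, edgeR called 3 of the 7 higher and 0 lower, where it called 1.77% of all genes tested. In bulk RNA of this kind, fewer cells of a type and less RNA per cell cannot be told apart.

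Between Ezh2Y646N and NrasQ61K cells, none of the 10 lineage factors passed edgeR's quasi-likelihood test, while DESeq2 called Lef1. The edgeR test called 0 of 10 at an adjusted p under 0.05, where it called 1.77% of all genes tested, 157 higher (1.1%) and 96 lower (0.673%). At an unadjusted p under 0.05, 1 of the 10 (Lef1) was counted, where 14.3% of all genes were. DESeq2 called Lef1 alone of the 10, lower in Ezh2Y646N, where it called 6.13% of the genes it tested, and limma voom called 0. The log2 fold change was above 0 for 4 members and below 0 for 6, with a median of -0.06 for the 10 and of -0.04 for all genes. In 9 of the 10 the size of the difference was under 0.4 on the log2 scale, and in 1 it was at least 1, as in 13.7% of all genes. The groups did not overlap in CPM for 3 members (Tfap2b, Tfe3 and Lef1), where 44.2% of all genes showed no overlap (21.1% higher and 23.1% lower in Ezh2Y646N). The SE of the members' log2 fold changes ran from 0.21 to 0.56.

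**Figure D1:**
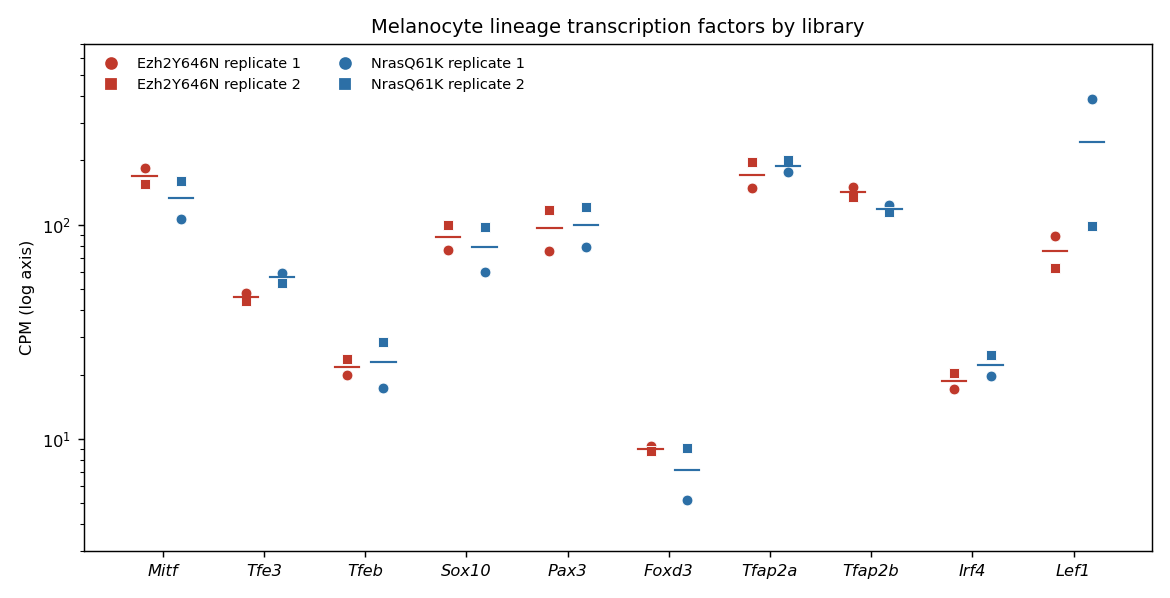
CPM (log axis) of each of the 10 transcription factors in each library, with circles for replicate 1, squares for replicate 2 and a horizontal bar for the group mean. On this axis the libraries spread less for the other 9 genes than for Lef1, though Foxd3 runs from 5.18 to 9.25 CPM. Lef1 stands at 387 CPM in NrasQ61K replicate 1 and between 62.6 and 98.9 CPM in the other 3 libraries.

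Mitf (ENSMUSG00000035158, GRCm38 chromosome 6, 97807052 to 98021349, plus strand) was measured at 185 and 155 CPM in the Ezh2Y646N libraries and at 106 and 160.2 CPM in the NrasQ61K libraries. NrasQ61K replicate 1 was the lowest, and the other 3 libraries lay together, so the groups overlapped. The means were 169.8 ± 21 CPM in Ezh2Y646N and 133 ± 38.1 CPM in NrasQ61K (SD, n = 2 each). Mitf differed by 0.35 on the log2 scale, with a standard error (SE) of 0.26 and an adjusted p in edgeR of 0.652. Without NrasQ61K replicate 1 it was 0.08, and without NrasQ61K replicate 2 it was 0.72, neither past the threshold.

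Tfe3 and Tfeb are close relatives of Mitf that drive lysosome and autophagy genes in many tissues. Tfe3 (ENSMUSG00000000134, chromosome X, 7762560 to 7775202, plus strand) was measured at 48.0 and 44.1 CPM in the Ezh2Y646N libraries and at 59.8 and 53.8 CPM in the NrasQ61K libraries. Both Ezh2Y646N values lay below both NrasQ61K values, and replicates of each group were close to each other. Tfe3 had a log2 difference of -0.30 (SE 0.22, adjusted p = 0.644 in edgeR), and it lay between -0.36 and -0.23 when any 1 library was left out. Tfeb (ENSMUSG00000023990, chromosome 17, 47737030 to 47792419, plus strand) was measured at 19.9 and 23.5 CPM in the Ezh2Y646N libraries and at 17.4 and 28.3 CPM in the NrasQ61K libraries. Here the NrasQ61K libraries spanned the Ezh2Y646N values. Its log2 fold change was -0.08 (SE 0.31, adjusted p = 0.953).

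Per kilobase of merged exons, Mitf was the most abundant of its family in every library. Of the summed CPM per kilobase of Mitf, Tfe3, Tfeb and Tfec, it made up 77.4% and 73.7% in the Ezh2Y646N libraries and 64.3% and 70.5% in the NrasQ61K libraries. The Ezh2Y646N shares lay above both NrasQ61K shares, a difference that was not tested. Tfe3 made up 13.5% and 14.0% in the Ezh2Y646N libraries and 24.2% and 15.8% in the NrasQ61K libraries. Tfec, the family member known from macrophages, was at 0.0534% or less in every library and was too low to be tested. The order of Tfe3 and Tfeb depended on the length used in 3 libraries. Per kilobase of the longest transcript, Tfeb was at 8.49 and 10.06 CPM in the Ezh2Y646N libraries and at 7.42 and 12.1 CPM in the NrasQ61K libraries. Tfe3 was at 7.58 and 6.97 CPM on that scale in the Ezh2Y646N libraries and at 9.45 and 8.50 CPM in the NrasQ61K libraries. Tfe3 stayed above Tfeb on both scales in NrasQ61K replicate 1.

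**Figure D2:**
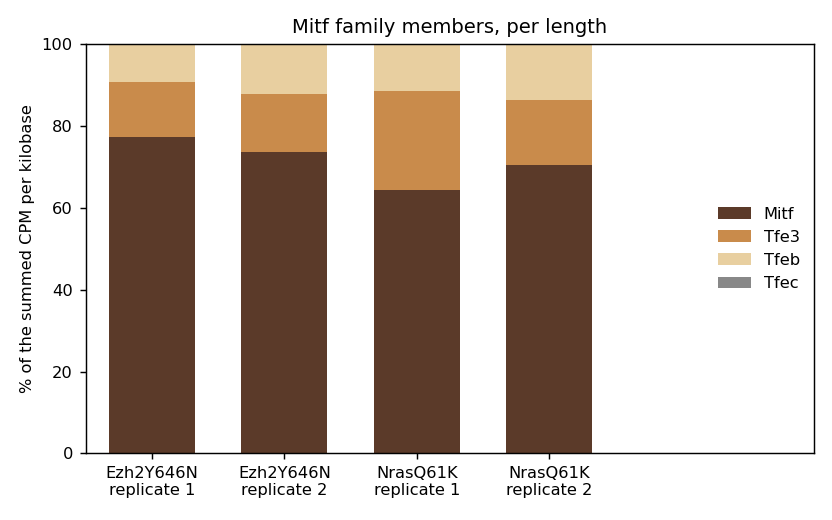
Share of each Mitf family member in the summed CPM per kilobase of merged exons of Mitf, Tfe3, Tfeb and Tfec, in percent, by library. Mitf takes 64.3% to 77.4% of each bar, Tfe3 is widest in NrasQ61K replicate 1 at 24.2%, and Tfec is too thin to see.

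Sox10, Pax3 and Foxd3 carry the neural crest part of the circuit. Sox10, an HMG-box factor needed for melanocytes and Schwann cells (ENSMUSG00000033006, chromosome 15, 79154908 to 79165240, minus strand), was measured at 76.04 and 100.001 CPM in the Ezh2Y646N libraries and at 59.97 and 97.4 CPM in the NrasQ61K libraries. Replicates of the same group differed more than the group means did, which were 88.0 ± 16.9 CPM in Ezh2Y646N and 78.7 ± 26.5 CPM in NrasQ61K (SD, n = 2 each). Sox10 had a log2 difference of 0.16 (SE 0.29, adjusted p = 0.884 in edgeR). Its sign turned to -0.05 without Ezh2Y646N replicate 2 and to -0.15 without NrasQ61K replicate 1. Schwann cell markers, led by Egr2 and Mbp, which mark the other Sox10-bearing cells of skin, summed to 1131 and 459 CPM in the Ezh2Y646N libraries and to 278 and 455 CPM in the NrasQ61K libraries, and their part in the Sox10 level was not tested.

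Pax3, a paired-box factor of melanoblasts and muscle precursors (ENSMUSG00000004872, chromosome 1, 78101267 to 78197134, minus strand), was measured at 75.1 and 118 CPM in the Ezh2Y646N libraries and at 78.4 and 122 CPM in the NrasQ61K libraries. Each group thus held a low and a high library, at nearly the same levels. The means were 96.5 ± 30.3 CPM in Ezh2Y646N and 100.1 ± 30.7 CPM in NrasQ61K (SD, n = 2 each), which left a log2 difference of -0.05 (SE 0.31, adjusted p = 0.963 in edgeR). Skeletal muscle markers summed to 24.6 to 46.3 CPM, their defining factor Myod1 was at 0.0575 CPM or less, and Pax7, a relative of Pax3, was at 0.345 CPM or less in every library. Foxd3, a forkhead factor of the early neural crest (ENSMUSG00000067261, chromosome 4, 99656299 to 99658622, plus strand), had the lowest CPM of the 10, with 161 and 127 counts in the Ezh2Y646N libraries and 82 and 190 counts in the NrasQ61K libraries. These correspond to 9.25 and 8.77 CPM in the Ezh2Y646N libraries and to 5.18 and 9.11 CPM in the NrasQ61K libraries. Only NrasQ61K replicate 1 stood apart, and without it the log2 fold change of 0.33 (SE 0.39, adjusted p = 0.807) became -0.02.

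Mitf, Sox10, Foxd3 and Tfeb were all at their lowest in NrasQ61K replicate 1, the library that was also lowest in melanocyte markers. Per 1000 counts of those markers, Mitf had 50.1 and 41.4 counts in the Ezh2Y646N libraries and 43.4 and 50.8 counts in the NrasQ61K libraries. On the same scale Sox10 had 20.7 and 26.7 counts in the Ezh2Y646N libraries and 24.5 and 30.9 counts in the NrasQ61K libraries. NrasQ61K replicate 1 was the lowest for neither gene on this scale, nor for Tfeb, which had 5.40 and 6.29 counts in the Ezh2Y646N libraries and 7.11 and 8.99 counts in the NrasQ61K libraries. It was still the lowest for Foxd3, which had 2.51 and 2.34 counts in the Ezh2Y646N libraries and 2.12 and 2.89 counts in the NrasQ61K libraries. When libraries were scaled to the melanocyte markers in edgeR, the median of all genes was -0.47, the log2 fold change of Mitf was -0.04 and that of Sox10 was -0.23. Relative to that shift of all genes, both genes lay above the median, and 0 of the 10 members passed. All 10 melanocyte markers are also on the list of Mitf and Sox10 target genes. Scaling to them therefore cannot tell the number of melanocytes from the activity of these factors. Within a library, the ratio of Mitf to Sox10 per kilobase was 1.195 and 0.763 in the Ezh2Y646N libraries and 0.872 and 0.810 in the NrasQ61K libraries. The ratio of Pax3 to Sox10 was 0.487 and 0.582 in the Ezh2Y646N libraries and 0.645 and 0.617 in the NrasQ61K libraries, with no overlap between groups and no test.

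Tfap2a and Tfap2b encode AP-2 factors, which act beside Mitf at pigment genes and are also expressed in keratinocytes. Tfap2a (ENSMUSG00000021359, chromosome 13, 40715302 to 40738376, minus strand) was measured at 148 and 196 CPM in the Ezh2Y646N libraries and at 177 and 202 CPM in the NrasQ61K libraries. The groups overlapped, and differed by -0.14 on the log2 scale (SE 0.24, adjusted p = 0.874 in edgeR). Tfap2b (ENSMUSG00000025927, chromosome 1, 19208914 to 19238576, plus strand) was measured at 149.7 and 135 CPM in the Ezh2Y646N libraries and at 123 and 115 CPM in the NrasQ61K libraries. Both Ezh2Y646N values were above both NrasQ61K values, and the means were 142 ± 10.2 CPM in Ezh2Y646N and 119 ± 6.14 CPM in NrasQ61K (SD, n = 2 each). Tfap2b had a log2 difference of 0.26 (SE 0.21, adjusted p = 0.684), and it stayed between 0.18 and 0.32 when any 1 library was left out.

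Basal keratinocyte markers summed to 13598 and 20891 CPM in the Ezh2Y646N libraries and to 10412 and 24295 CPM in the NrasQ61K libraries. Tfap2a was lower in replicate 1 than in replicate 2 of each group, as was this sum, while Tfap2b was higher in replicate 1. The part of keratinocytes in these levels was not tested. Exons of Tfap2a overlap 3 annotated antisense genes that have no row in the files, and the strand setting of the counting is not given in the sources used here, so reads of these genes cannot be told from those of Tfap2a.

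Irf4, an interferon regulatory factor that acts with Mitf on Tyr in human pigment cells and is best known in lymphocytes and dendritic cells (ENSMUSG00000021356, chromosome 13, 30749226 to 30766976, plus strand), was measured at 17.2 and 20.3 CPM in the Ezh2Y646N libraries. It was measured at 19.7 and 24.7 CPM in the NrasQ61K libraries, so the groups overlapped. Irf4 had a log2 difference of -0.24 (SE 0.27, adjusted p = 0.798 in edgeR). Macrophage and dendritic cell markers, led by Cd74 and H2-Ab1, were below 0 in 12 of 12 tested members, with a median log2 fold change of -1.27. In edgeR 0 passed and 6 had an unadjusted p under 0.05, DESeq2 called 2 lower and limma voom called 0. Without NrasQ61K replicate 1 edgeR called 2 lower, and without NrasQ61K replicate 2 the median was -0.32. They summed to 90.4 and 207 CPM in the Ezh2Y646N libraries and to 210.1 and 537 CPM in the NrasQ61K libraries. Lymphocyte markers, led by Ptprc and Cd3g, summed to 9.77 and 15.7 CPM in the Ezh2Y646N libraries and to 10.7 and 35.7 CPM in the NrasQ61K libraries. Irf4 was highest where both sums were highest, in NrasQ61K replicate 2, and their part in its level was not tested.

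Lef1, the HMG-box partner of beta-catenin, had the largest difference of the 10, and it rested on a single library. Lef1 (ENSMUSG00000027985, chromosome 3, 131110471 to 131224356, plus strand) was measured at 89.0 and 62.6 CPM in the Ezh2Y646N libraries and at 387 and 98.9 CPM in the NrasQ61K libraries. Both Ezh2Y646N values lay below both NrasQ61K values, but NrasQ61K replicate 2 lay close to the Ezh2Y646N libraries and NrasQ61K replicate 1 was 3.91 times as high as its replicate. The means were 75.8 ± 18.6 CPM in Ezh2Y646N and 243 ± 204 CPM in NrasQ61K (SD, n = 2 each). In edgeR the log2 difference was -1.68 (SE 0.56, adjusted p = 0.206). Without NrasQ61K replicate 1 it was -0.38 (adjusted p = 0.729). With NrasQ61K replicate 2 left out instead it was -2.31 and passed the threshold (adjusted p = 0.000363). That fit sets the 1 remaining NrasQ61K library, the one at 387 CPM, against the Ezh2Y646N pair, which alone supplies the spread, so the lone library is assumed to vary as that pair does. DESeq2 gave -1.65 with an adjusted p of 0.00755. Exons of Lef1 overlap an annotated antisense gene that has no row in the files.

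**Figure D3:**
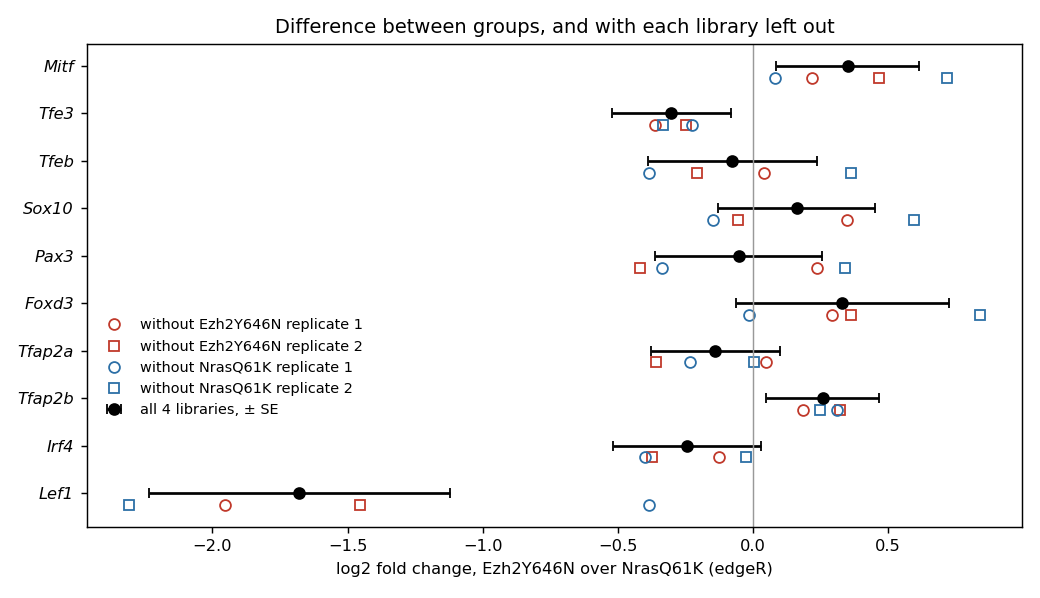
Log2 fold change of Ezh2Y646N over NrasQ61K for each gene with all 4 libraries (filled points, bars ± SE) and with each library left out (open symbols below). Tfe3, Tfap2b, Mitf, Irf4 and Lef1 keep their sign in all 5 fits, and Lef1 moves to -0.38 without NrasQ61K replicate 1.

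Lef1 is also a factor of the hair follicle, where it is high in the cells that form the hair shaft, and of the dermal papilla. Hair shaft and inner root sheath markers, led by Tchh and Krt71, and dermal papilla markers, led by Vcan and Wif1, put the 4 libraries in the same order as Lef1 did. The first list summed to 487 and 227 CPM in the Ezh2Y646N libraries and to 2578 and 1453 CPM in the NrasQ61K libraries, highest in NrasQ61K replicate 1. In that list 10 of 10 tested members were below 0, the median log2 fold change was -2.74, and edgeR called 5 lower and 0 higher. With 1 library left out, edgeR called 3 lower when Ezh2Y646N replicate 1 was dropped and 1 when Ezh2Y646N replicate 2 was. It called 2 lower when NrasQ61K replicate 1 was dropped and 7 when NrasQ61K replicate 2 was, and RLE scaling gave 3. Dermal papilla markers summed to 79.6 and 53.7 CPM in the Ezh2Y646N libraries and to 314 and 173 CPM in the NrasQ61K libraries, and edgeR called 2 of 8 lower, or 3 without NrasQ61K replicate 1 and 4 without NrasQ61K replicate 2. Wif1 is in the dermal papilla list and in the list of Lef1 targets. Endothelial markers, at 127 and 75.1 CPM in the Ezh2Y646N libraries and 208 and 174 CPM in the NrasQ61K libraries, shared the order of Lef1. The part of follicle cells in the Lef1 level was not tested.

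**Figure D4:**
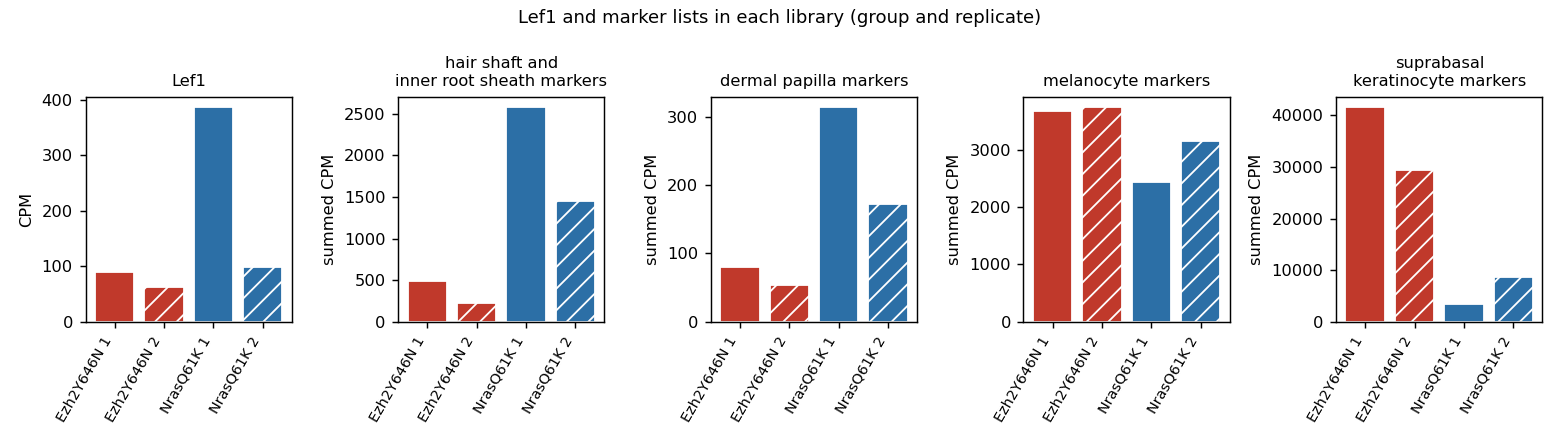
Lef1 in CPM and the summed CPM of 4 marker lists in each library, with plain bars for replicate 1 and hatched bars for replicate 2. NrasQ61K replicate 1 is highest for Lef1, at 387 CPM, and for hair shaft and dermal papilla markers, and lowest for melanocyte markers, at 2446 CPM.

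The order of the 10 genes by CPM per kilobase of merged exons was similar in 3 libraries. Tfap2a was first in both Ezh2Y646N libraries and in NrasQ61K replicate 2, at 30.2, 39.9 and 41.2 CPM per kilobase. Sox10 and Mitf took the next ranks in these 3 libraries, Sox10 at 24.9 to 32.8 and Mitf at 25.001 to 29.8. These ranges overlap, so the order of the pair was not fixed. In NrasQ61K replicate 1, Lef1 was first at 44.0 CPM per kilobase and Mitf was at rank 5 with 17.1. That rank of Mitf depended on the length used. Tfap2b averaged 22.5 ± 1.61 in Ezh2Y646N and 18.8 ± 0.968 in NrasQ61K, and Pax3 averaged 15.6 ± 4.90 in Ezh2Y646N and 16.2 ± 4.96 in NrasQ61K (CPM per kilobase, SD, n = 2 each). Tfe3, Tfeb, Irf4 and Foxd3 lay lowest, between 2.23 and 6.46 CPM per kilobase over all libraries, and on that scale the last 3 could not be ordered beyond their spread. Per kilobase of the longest transcript, Tfeb lay above Irf4 and Foxd3 in every library, with Irf4 at 3.61 to 5.18 and Foxd3 at 2.23 to 3.98. By that length, Mitf was at 21.8 in NrasQ61K replicate 1, below Lef1 (105.8) and Tfap2a (50.7). It lay just above Sox10 (21.6), Tfap2b (21.1) and Pax3 (20.3) there.

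Of 33 tested target genes of Mitf and Sox10, edgeR called 0, 3 had an unadjusted p under 0.05, DESeq2 called 2 lower and limma voom called 0. Beside this and the other lists, edgeR called 1.77% of all genes it tested and DESeq2 called 6.13%. An unadjusted p under 0.05 in edgeR was seen in 14.3% of all genes. The 33 include all 10 melanocyte markers, of which 9 were above 0, with a median of 0.31 for the markers. Of the 33, 22 were above 0 and 11 below, with a median of 0.22, against -0.04 for all genes. This median was 0.003 without Ezh2Y646N replicate 1, 0.050 without NrasQ61K replicate 1, 0.34 when Ezh2Y646N replicate 2 was dropped and 0.39 when NrasQ61K replicate 2 was, and each of the last 2 fits called 1 gene lower. The 3 with the smallest p were Ctsk (-1.53), a cathepsin also known from osteoclasts, the melanosomal glycoprotein gene Gpnmb (-1.18) and the coactivator gene Ppargc1a (0.80). Gpnmb was at 373 and 327 CPM in the Ezh2Y646N libraries and at 1044 and 544 CPM in the NrasQ61K libraries, with edgeR's adjusted p at 0.149. Gpnmb and Ctsk are also expressed by macrophages, whose markers were highest in NrasQ61K replicate 2 and lowest in Ezh2Y646N replicate 1. Ctsk was at 5.06 and 12.2 CPM in the Ezh2Y646N libraries and at 24.4 and 25.2 CPM in the NrasQ61K libraries. Its highest and lowest libraries were thus those of the macrophage markers. Gpnmb was highest in NrasQ61K replicate 1 and lowest in Ezh2Y646N replicate 2. The part of macrophages in these levels was not tested. Relative to Mitf per kilobase, Dct, a melanin enzyme gene, was 12.5 and 18.7 times as high in the Ezh2Y646N libraries and 14.7 and 13.1 times as high in the NrasQ61K libraries. The same ratio for Tyr was 1.23 and 1.24 in the Ezh2Y646N libraries and 1.41 and 0.988 in the NrasQ61K libraries. Neither the Dct nor the Tyr ratio separated the groups. For Pmel the ratio was 4.18 and 2.86 in the Ezh2Y646N libraries and 4.29 and 4.39 in the NrasQ61K libraries. For Tyrp1 it was 5.45 and 3.84 in the Ezh2Y646N libraries and 6.18 and 5.57 in the NrasQ61K libraries. The Pmel and Tyrp1 ratios were lower in Ezh2Y646N with no overlap between groups, which was not tested. For both ratios, Ezh2Y646N replicate 1 lay nearer to the NrasQ61K libraries than to its own replicate.

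Lysosome and autophagy genes driven by Tfeb and Tfe3 also gave 0 calls in edgeR among 37 tested, with 12 above 0, 25 below and a median of -0.14. Of these 7 had an unadjusted p under 0.05, 6 of them lower, DESeq2 called 2 lower and limma voom called 0. Wipi1, an autophagosome protein gene, had a log2 fold change of -1.14 (edgeR's adjusted p = 0.108), and the cathepsin genes Ctsf and Ctsd had -1.24 and -0.89. With NrasQ61K replicate 1 left out, 3 of this list were called lower, and with NrasQ61K replicate 2 left out 1 was and the list's median was 0.08. Of 13 tested targets of Lef1 and beta-catenin, edgeR and limma voom called 0 and DESeq2 called 1 higher and 3 lower, while an unadjusted p under 0.05 was seen in 5. With 1 library left out, edgeR called 1 higher without Ezh2Y646N replicate 2, 1 lower without NrasQ61K replicate 1 and 3 lower without NrasQ61K replicate 2. Wif1, a secreted Wnt inhibitor, was at 21.5 and 15.3 CPM in the Ezh2Y646N libraries and at 87.8 and 45.7 CPM in the NrasQ61K libraries (log2 fold change -1.86, edgeR's adjusted p = 0.0507). Bambi, a decoy receptor, had -2.28 (0.0586), and the receptor gene Lgr6 had 1.81 (0.0507). Axin2, a feedback target that many cells use, was at 116 and 177 CPM in the Ezh2Y646N libraries and at 138 and 106 CPM in the NrasQ61K libraries.

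Among upstream signals and cofactors, 0 of 23 tested genes were called by edgeR, DESeq2 or limma voom, and an unadjusted p under 0.05 was seen in 3. With NrasQ61K replicate 2 left out, edgeR called 1 lower. Edn3, the ligand of the receptor Ednrb, was at 0.690 and 0.0691 CPM in the Ezh2Y646N libraries and at 1.83 and 3.84 CPM in the NrasQ61K libraries (log2 fold change -2.84, edgeR's adjusted p = 0.226). Pias3, which encodes a partner of Mitf, had 0.73, and the Wnt co-receptor gene Lrp6 had -0.53. Of 10 tested relatives of the members, edgeR and limma voom called 0 and DESeq2 called 1 lower, while an unadjusted p under 0.05 was seen in 1. With NrasQ61K replicate 1 left out, edgeR called 1 lower. Sox9, the hair follicle relative of Sox10, was at 154 and 176 CPM in the Ezh2Y646N libraries and at 247 and 680.1 CPM in the NrasQ61K libraries (log2 fold change -1.49, adjusted p = 0.154). Tcf7l1, a relative of Lef1, had -0.69 and Tfap2c 0.47.

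Other neural crest factors lay mostly below 0. Of 20 tested, 17 were below 0 and 3 above, with a median of -0.30, and edgeR and limma voom called 0. An unadjusted p under 0.05 was seen in 5, and DESeq2 called 3 lower. The median was -0.61 without Ezh2Y646N replicate 1 and -0.55 without Ezh2Y646N replicate 2, and edgeR called 1 lower without NrasQ61K replicate 1 and 4 lower without NrasQ61K replicate 2. The homeobox gene Msx1 was at 6.95 and 4.01 CPM in the Ezh2Y646N libraries and at 76.8 and 20.5 CPM in the NrasQ61K libraries (log2 fold change -3.14, edgeR's adjusted p = 0.0525). Its relative Msx2 had -1.79 and Id2, an inhibitor of helix-loop-helix factors, -1.19. Msx1 and Msx2, which are also genes of the hair follicle, were highest in NrasQ61K replicate 1, as Lef1 and the hair shaft markers were.

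**Figure D5:**
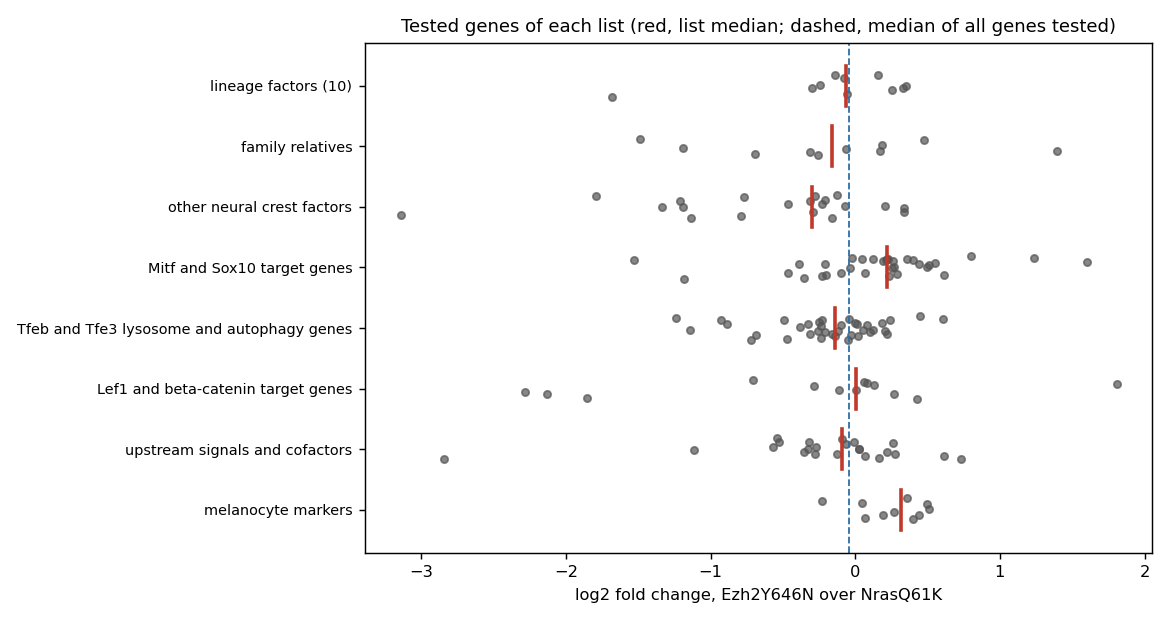
Log2 fold change of Ezh2Y646N over NrasQ61K for each tested gene of 8 lists, with the list median in red and the median of all genes tested dashed. The medians of the 10 lineage factors and of all genes are -0.06 and -0.04, and the outlying lineage factor at -1.68 is Lef1.

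The genes whose levels followed Mitf most closely over the 4 libraries were Ormdl2, Yif1a, Mid2, Fbxw2 and Rnf13, with root mean square differences of 0.029 to 0.040 on the centred log2 CPM scale. Those closest to Sox10 were Myo1d, Trappc6a, Scarb2, Glmp and Ctdsp2, at 0.015 to 0.027. Of the other members, Foxd3 lay closest to Mitf, at 0.100, and Tfeb closest to Sox10, at 0.125, followed by Pax3 at 0.154. Among all genes compared, Foxd3 was only at rank 125 from Mitf, and Sox10 was at rank 2036. Tfeb and Pax3 were at ranks 261 and 465 from Sox10. With 4 libraries such closeness describes these samples only.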

How the data were processed

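RNA was sequenced from 4 libraries. The deposited values are raw read counts per Ensembl gene, with no normalization, per the file headers and values. GRCm38 is the build, and featureCounts, STAR 2.5.4b, Trimmomatic, bcl2fastq 2.19 and edgeR are the tools, given without roles by the submitters' processing notes, and per the labels' protocols the kit was stranded and removed ribosomal RNA. Symbols, positions and merged exon lengths came from GENCODE M21, which held 22291 of 22524 identifiers. Genes were kept by edgeR's filterByExpr (minimum count 10, minimum total 15), scaled by TMM and tested with edgeR 4.0.16 in R 4.3.3 by a robust quasi-likelihood fit with group as its term, leaving 2 residual degrees of freedom. Benjamini-Hochberg adjustment (threshold 0.05) covered all genes tested, and each SE is the absolute log2 fold change over the square root of F. DESeq2 1.42.0, limma voom 3.58.1 and other scalings and filters were alternatives. The fit was tested on simulated data, with the same dispersion given to every gene. There it called 19.1% of 47 genes changed 2-fold and 81.6% of 49 genes changed 4-fold. The members and lists were chosen with earlier results of these data known. Named are all members, the called or else the 3 smallest-p genes per list, the 2 most abundant genes of each marker list described, and the 5 genes closest to Mitf and to Sox10. Axin2, Tfec, Pax7, Myod1 and the Dct, Tyr, Pmel and Tyrp1 ratios were chosen after their values were seen. Annotation release, strand setting and gene filter behind the deposited counts were not given in the sources used here. Of 238 listed genes 236 had a row.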

Additional observations from a re-analysis of the deposited data

How the results depend on the processing

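All 10 log2 fold changes stayed short of the threshold under the alternatives run except that of Lef1, which passed in DESeq2 (adjusted p = 0.00755), with no filter on low counts (1.33e-07), without NrasQ61K replicate 2 (0.000363, where NrasQ61K is 1 library and the Ezh2Y646N pair alone supplies the spread) and with the replicate number as a block (0.00595). In each of these, 1 member was called lower. Over all genes, the calls were 686 higher and 616 lower with no filter, 505 and 378 in DESeq2, 157 and 96 as reported, and with libraries scaled to melanocyte markers 515 were lower. With the replicate block 710 genes were higher and 627 lower. The labels do not say that the numbers pair the libraries, and the deviations of same-numbered libraries correlated at 0.14 across genes, with only 2 numbers. Leaving out 1 library gave 49 to 730 genes higher and 43 to 393 lower, and 0 to 1 members lower. Scaled to melanocyte markers, signs turned for Mitf (-0.042), Sox10 (-0.23), Tfap2b (-0.18) and Foxd3 (-0.048), where the median of all genes was -0.47. With 1 library left out, signs turned for Pax3 (-0.42 to 0.34), Tfap2a (-0.36 to 0.049), Tfeb (-0.39 to 0.36), Sox10 (-0.15 to 0.59) and Foxd3 (-0.017 to 0.84). The causes were not tested. Counts of the lysosome and autophagy list called lower were 3 with no filter, with melanocyte-marker scaling and without NrasQ61K replicate 1, against 0 as reported. Depth limits Foxd3 most, with 82 counts in its lowest library.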

Other observations

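Fibroblast markers, a list in which 8 of 8 tested genes lay below 0 with a median log2 fold change of -1.36, summed to 820.3 and 2038 CPM in the Ezh2Y646N libraries and to 4056 and 2399.5 CPM in the NrasQ61K libraries, and edgeR called 2 lower. Without either Ezh2Y646N library edgeR called 0 of them, with RLE scaling 1 and without NrasQ61K replicate 2 it called 4, and limma voom called 0. Endothelial markers summed to 127 and 75.1 CPM in the Ezh2Y646N libraries and to 208 and 174 CPM in the NrasQ61K libraries, and edgeR called 0 of 6, with 2 at an unadjusted p under 0.05, 1 called lower by DESeq2 and 0 by limma voom.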
